A study of Mus musculus with 6 samples.

Results

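The genes described are the small nucleolar RNAs (snoRNAs), the transcripts that host them and the structural RNAs of LT-HSCs, the long-term hematopoietic stem cells of the bone marrow. They were taken by symbol from the deposited normalized table, as every row whose symbol starts with Snora, Snord, Scarna, Snhg, Rnu or Rny, or is Rmrp, Rpph1, Rn7sk, Rn7s1, Rn7s2, Rn45s, Gas5, Malat1 or Neat1. This gave 85 of the 12179 genes in that table. Their read counts came from the deposited count table of 27179 genes, in which 162 genes carry such a symbol. Of those 162 genes, 72 had no read in any library, and no Rny gene (Y RNA), Rn7s1 or Rn7s2 was among the 85. The 85 genes were 35 box C/D snoRNAs (Snord), 21 box H/ACA snoRNAs (Snora), 5 small Cajal body RNAs (Scarna), 11 host transcripts (Gas5 and the Snhg genes), 7 genes with the prefix Rnu, 3 other structural RNAs (Rmrp, Rpph1 and Rn7sk), the nuclear long RNAs Malat1 and Neat1, and the precursor of ribosomal RNA, Rn45s.

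RNA-Seq compared 3 WT libraries with 3 Foxm1 HET libraries. All came from C57BL/6 mice at 8 weeks of age, from bone marrow cells sorted as CD150+CD48-LSK, and the labels call the second genotype Foxm1 heterozygous. The titles of the Foxm1 HET samples name the floxed allele (FoxM1flPlus) without a Cre driver, and the study uses Tie2-Cre and Mx1-Cre elsewhere, so the driver behind these libraries was not settled here. The study's methods say that the bone marrow came from 3 mouse pairs, each with a heterozygote and a control. The labels tie no library to a single mouse and do not say which libraries form a pair, so the p-values measure the spread between these libraries.

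snoRNAs guide chemical modification of other RNAs in the nucleolus. Box C/D snoRNAs direct methylation of ribose and box H/ACA snoRNAs direct pseudouridylation of ribosomal RNA, while small Cajal body RNAs do the same for the RNAs of the spliceosome. In mammals most are cut out of the introns of a host gene, which can encode a protein of the ribosome or, as in Gas5 and the Snhg genes, a spliced RNA with little coding capacity. Rmrp and Rpph1 are the RNA parts of RNase MRP and RNase P, and Rn7sk holds the elongation factor P-TEFb in an inactive particle.

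Library totals ran from 14573002 to 25798509 counted reads, and Foxm1 HET replicate 2 stood apart with the fewest reads and with 4467 genes at 10 reads or more, against 5963 to 9894 in the other libraries. Reads of Foxm1 itself were 1182, 2615 and 2942 in the WT replicates and 659, 5 and 742 in the Foxm1 HET ones. Every WT library lay above every Foxm1 HET library, but the edgeR test did not call Foxm1 (adjusted p = 0.961). The fitted difference was -3.30 on the log2 scale. Why Foxm1 HET replicate 2 had only 5 reads was not tested. Of 12 LT-HSC markers 10 could be tested and 0 were called, with a summed level of 2924 to 6612 CPM (counts scaled to library size) in WT and 4264 to 5627 CPM in Foxm1 HET. Markers of neutrophils and monocytes, 9 of 9 tested and 0 called, were also present in sorted cells, at 6483 to 17311 CPM in WT and 1929 to 11467 CPM in Foxm1 HET. Erythroid markers (4 of 7 tested) summed to 70.8 to 89.5 CPM in WT and 15.9 to 36.2 CPM in Foxm1 HET, with Hba-a1 at 0 reads everywhere. Megakaryocyte markers (1 of 6 tested) reached 381 CPM in WT replicate 1 and 236 CPM in Foxm1 HET replicate 1, and 4.60 to 52.0 CPM in the other libraries. B cell markers (1 of 6) reached 200.2 CPM in WT replicate 3 and at most 48.2 CPM elsewhere, with Cd79a, Ebf1 and Vpreb1 at 0 reads everywhere. T and NK cell markers (2 of 6) did not exceed 30.5 CPM in any library, with Cd3d, Cd3g and Gzmb at 0, and endothelial and stromal markers (1 of 7) did not exceed 136 CPM, with Col1a1, Col1a2 and Lepr at 0. The part of other cell types in the results below was not tested.

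Groups of snoRNAs from shared hosts show what was counted. Hspa8, which encodes a constitutive heat shock protein, carries 3 copies of the U14 snoRNA in its introns, and Rps13 carries another copy. The sequences below are those of GENCODE M21 on GRCm38, 5′ to 3′, with the C box TGATGA and the D box CTGA in capitals, where the C box was looked for in the first 30 bases and the D box in the last 20.
Snord14c (chr9:40803583-40803668, plus strand): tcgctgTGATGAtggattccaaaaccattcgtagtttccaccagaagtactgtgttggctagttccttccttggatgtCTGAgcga
Snord14d (chr9:40803995-40804080, plus strand): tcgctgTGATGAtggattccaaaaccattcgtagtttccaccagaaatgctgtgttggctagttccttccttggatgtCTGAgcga
Snord14e (chr9:40804748-40804837, plus strand): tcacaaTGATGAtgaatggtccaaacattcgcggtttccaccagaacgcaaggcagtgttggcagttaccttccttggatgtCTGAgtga
Snord14a (chr7:116333171-116333257, minus strand): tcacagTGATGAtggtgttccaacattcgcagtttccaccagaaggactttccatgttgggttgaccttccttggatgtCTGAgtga
Snord14c and Snord14d were identical at 84 of 86 positions and differed by G47A and A49G, counted from the 5′ end of Snord14c. Snord14e and Snord14a were further apart, with 82.6% identity to each other and 78.0% to 79.6% to the other pair. With reads of 50 bases, none of these 4 RNAs had a 50-base stretch found in a transcript of a gene at another place in the genome. Transcripts of genes that overlap the RNA, its host among them, were left out of that search.

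The 3 snoRNAs of Snhg12 and the pair of Rps12 are shown because their counts followed their host in different ways (below). Box H/ACA snoRNAs are marked by an H box, ANANNA, here the match nearest the middle of the RNA and within 15 bases of it, and by ACA placed 3 bases before the end.
Snora44 (chr4:132309941-132310069, plus strand): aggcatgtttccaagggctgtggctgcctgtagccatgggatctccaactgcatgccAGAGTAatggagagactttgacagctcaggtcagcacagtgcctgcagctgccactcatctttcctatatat
Snora61 (chr4:132310240-132310369, plus strand): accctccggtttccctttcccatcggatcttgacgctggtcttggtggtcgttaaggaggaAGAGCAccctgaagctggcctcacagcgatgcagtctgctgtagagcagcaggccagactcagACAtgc
Snord99 (chr4:132310691-132310764, plus strand): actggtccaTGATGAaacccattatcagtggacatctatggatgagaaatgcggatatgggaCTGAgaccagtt
Snord100 (chr10:23785750-23785823, minus strand): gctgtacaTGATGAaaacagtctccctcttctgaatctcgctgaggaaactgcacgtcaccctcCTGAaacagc
Snora33 (chr10:23785347-23785475, minus strand): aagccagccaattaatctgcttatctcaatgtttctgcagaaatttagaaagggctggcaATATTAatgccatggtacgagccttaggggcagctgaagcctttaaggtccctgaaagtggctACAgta
Among the 35 box C/D snoRNAs, 20 held TGATGA and 34 held CTGA in these windows, and among the 21 box H/ACA snoRNAs, 19 held the H box and 17 the ACA. A missing match says only that these letters were not in that window. The interval used for counting was often shorter than the annotated RNA. It covered the whole RNA for 13 of the 61 snoRNAs and small Cajal body RNAs. It covered under 80% of the RNA for 16, with a lowest value of 44.4%. For 3 of the 61 the interval was shorter than a read, and that of Scarna9 was the shortest, at 42 bases.

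The remaining sequences are those of the box C/D and box H/ACA snoRNA with the highest mean CPM and of the 1 tested gene whose genotypes did not overlap, Rnu3a, which encodes the U3 RNA needed for early cleavage of the ribosomal precursor. Snord72 lies in an intron of Rpl37 and Snora31 in an intron of Tpt1.
Snord72 (chr15:5118404-5118484, plus strand): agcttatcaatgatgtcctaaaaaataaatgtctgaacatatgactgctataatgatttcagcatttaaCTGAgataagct
Snora31 (chr14:75847905-75848034, plus strand): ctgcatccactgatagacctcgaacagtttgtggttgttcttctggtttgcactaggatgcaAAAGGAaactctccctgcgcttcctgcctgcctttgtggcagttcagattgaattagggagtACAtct
Rnu3a (chr10:40258467-40258679, plus strand): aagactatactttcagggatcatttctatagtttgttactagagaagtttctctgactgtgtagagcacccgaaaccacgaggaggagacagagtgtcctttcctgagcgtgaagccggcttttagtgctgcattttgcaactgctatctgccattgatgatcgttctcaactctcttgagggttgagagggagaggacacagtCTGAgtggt
For Rnu3a the counting interval was the 104 bases from 40258576 to 40258679, that is the 3′ part of the RNA. The letters of the C box were not found in the first 30 bases of Snord72.

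Most snoRNAs were counted in few libraries, and not in the same ones. Of the 61 snoRNAs and small Cajal body RNAs, 25 reached 10 reads in 1 library, 14 in 2, 10 in 3 and 2 in 4, while 10 did so in none and 0 in all 6. WT replicates 1, 2 and 3 had 15, 13 and 8 of them at 10 reads or more, and the Foxm1 HET replicates had 33, 2 and 20. After every library was thinned to the smallest total, the numbers were 14, 12 and 8 in the WT libraries against 27, 2 and 18 in the Foxm1 HET libraries. Foxm1 HET replicates 1 and 3 thus counted more snoRNAs than each WT library, and replicate 2 counted fewer. All 12179 genes of the normalized table followed the same order, with 63.8%, 55.6% and 48.6% at 10 reads or more in the WT libraries against 79.2%, 36.4% and 75.8% in the Foxm1 HET libraries. WT replicates 1 and 2 had 2 snoRNAs in common, 13.3% and 15.4% of their lists, and Foxm1 HET replicates 1 and 3 had 13 in common, 39.4% and 65.0% of theirs. In all, 9 snoRNAs reached 10 reads only in WT libraries, 20 only in Foxm1 HET libraries and 22 in both, which is a count over libraries of unequal depth and not a test. Foxm1 HET replicates 1 and 3 also had the largest shares of all genes at 10 reads or more. The same count over all genes is not given here, so these numbers show no difference between genotypes.

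**Figure D1:**
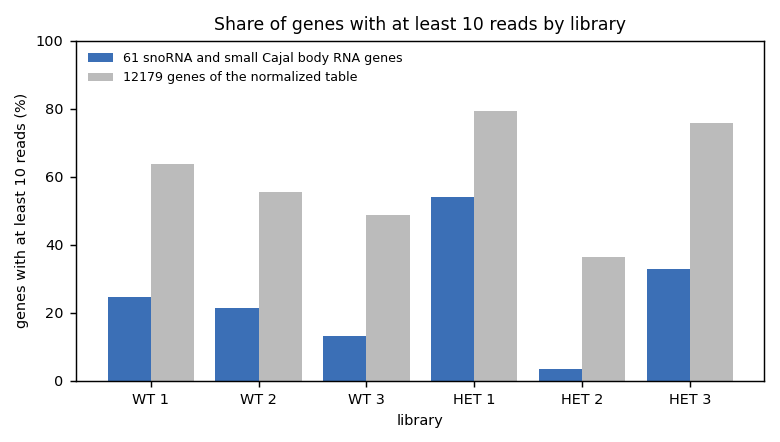
Share of genes (%) with at least 10 reads in each library, for the 61 snoRNA and small Cajal body RNA genes (blue) and all 12179 genes of the normalized table (grey). The snoRNA share was 24.6%, 21.3% and 13.1% in WT replicates 1 to 3 and 54.1%, 3.28% and 32.8% in Foxm1 HET replicates 1 to 3, below that of all genes in every library.

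The summed reads of these 61 genes were 2901, 5379 and 4157 in the WT libraries against 4417, 52 and 3896 in the Foxm1 HET libraries. On the CPM scale this was 144, 234 and 193 in the WT libraries against 174, 3.57 and 151 in the Foxm1 HET libraries. Foxm1 HET replicates 1 and 3 lay inside the WT range, and replicate 2 was the lowest library. Snord72 alone gave 3238 of the reads of WT replicate 3 (77.9%), and without this gene the sums were 144, 234 and 42.7 CPM in the WT libraries against 171, 3.57 and 149 CPM in the Foxm1 HET libraries. In the other libraries the highest gene gave 16.2% to 44.1% of the reads, and without the highest gene of each library replicate 2 was still the lowest, at 2.54 CPM against 42.7 to 174 CPM. Replicate 2 also had the fewest reads and 4467 genes at 10 reads or more, the fewest of the 6 libraries. The part of library quality in its low sums was not tested. In bulk samples like these, fewer cells that hold an RNA and less of it per cell cannot be told apart. A single library often held nearly all of a gene's signal: over 90% of the summed CPM came from 1 library for 39 of the 85 genes (45.9%) and for 24.9% of the genes in the normalized table. The median counted length was 116 bases for the 85 genes and 2769 bases for all genes in that table. Of the 85 genes, 7 had 3 reads or fewer in all 6 libraries together and 3 had a single read. A count of 0 in a library allows up to 3 reads, that is 0.116 to 0.206 CPM, and covers counting error only.

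**Figure D2:**
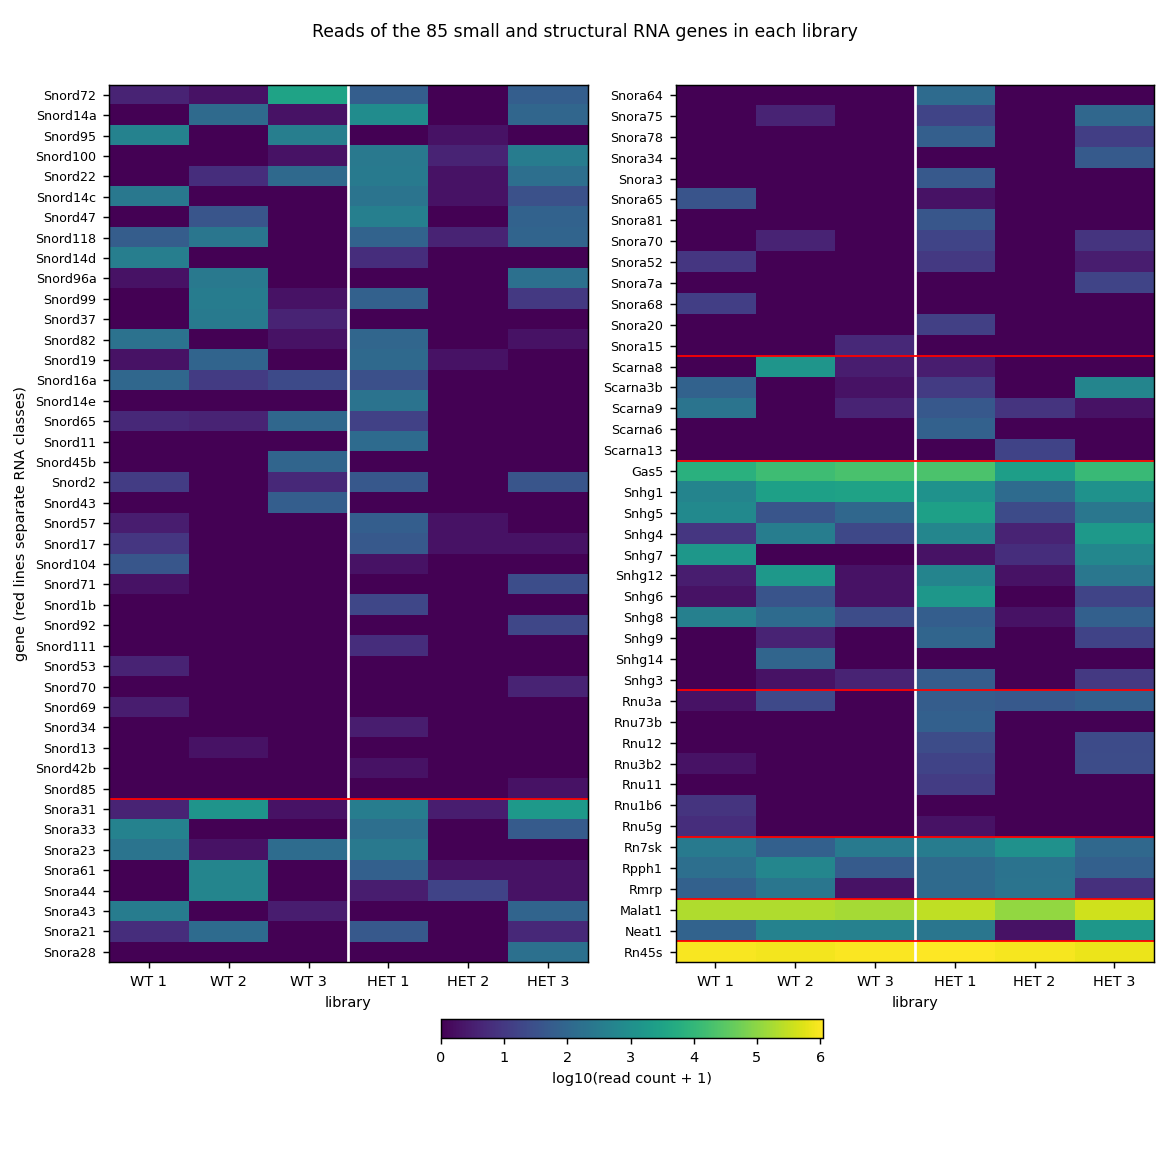
Reads of the 85 genes (rows, sorted by class and then by mean CPM) in the 3 WT and 3 Foxm1 HET libraries (columns), as log10(read count + 1). The host transcripts Gas5 and Snhg1, the structural RNAs Rn7sk and Rpph1, Malat1 and Rn45s were present across libraries, whereas most snoRNA rows are at or near 0 outside 1 to 3 libraries, and the column of Foxm1 HET replicate 2 is nearly empty for snoRNAs.

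Between genotypes, none of the genes was called by the main test. By edgeR's quasi-likelihood test, 26 of the 85 genes (30.6%) passed the filter on low counts, and 0 of the 26 had an adjusted p under 0.05, against 0.329% of the 8195 genes tested. The count at an unadjusted p under 0.05 was also 0 of 26, against 6.03% of all genes. DESeq2 called 0 of the 19 genes for which it gave an adjusted p, against 3.13% of all genes with one. It gave no p at all for Rn7sk, Snhg6, Snora23, Snord14c and Snord72. None of the genes with an unadjusted p was under 0.05, against 13.1% of all genes with one. Of the alternatives, limma-voom alone called 1 of the 85 genes, Rn45s. The fitted log2 fold change was above 0 for 12 of the 26 (46.2%) and below 0 for 14, against 45.4% above 0 over all genes. The median was -0.11 for these genes and -0.26 for all genes, with median standard errors (SE) of 2.93 and 2.59. With 1 library removed at a time, 32 to 43 genes passed the filter and 0 were called. The count at an unadjusted p under 0.05 was 5 of 43 (11.6%) without Foxm1 HET replicate 2, against 6.36% of all genes. It was 1 of 39 (2.56%) without WT replicate 1, against 6.52%, and 2 of 38 (5.26%) without WT replicate 2, against 5.72%. It was 0 without each of WT replicate 3 and Foxm1 HET replicates 1 and 3, against 5.91%, 4.95% and 4.81% of all genes. Without Foxm1 HET replicate 2, all of the 5 genes but Rn45s passed the filter only through the genotype in which they were high. Their p-values are thus no support for a difference. For 6 of the 26, Rn45s among them, the fitted fold change and the difference between the mean log2 CPM had opposite signs.

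**Figure D3:**
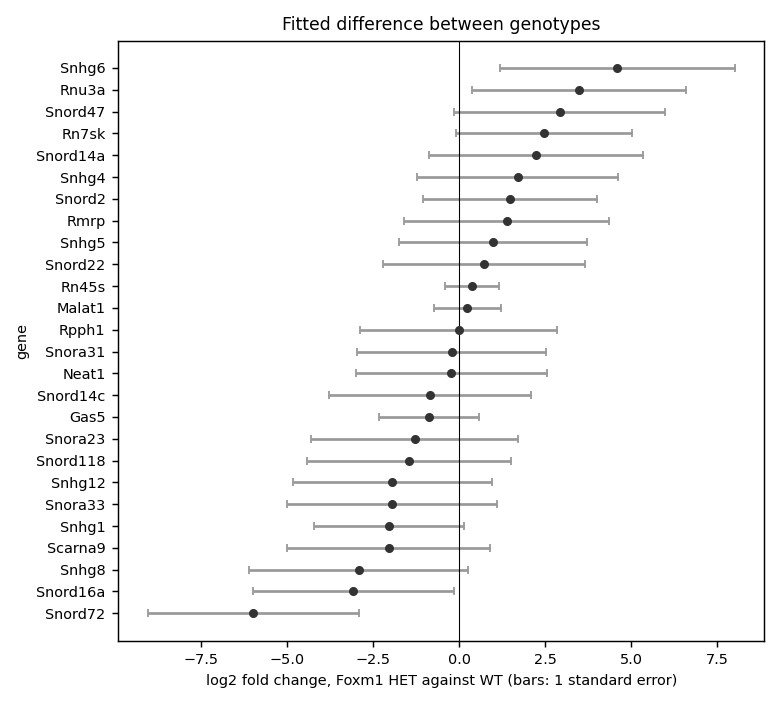
Fitted log2 fold change of Foxm1 HET against WT (x axis) for the 26 tested genes (y axis), with bars of 1 standard error. The values run from -5.99 for Snord72 to 4.60 for Snhg6, and none was called by edgeR.

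Among box C/D snoRNAs, 8 of 35 were tested. Snord72 had the smallest p of all 26 genes from uneven reads, 3, 1 and 3238 in the WT libraries against 61, 0 and 64 in the Foxm1 HET libraries. WT replicate 3 held 96.7% of its CPM, and the genotypes overlapped. Its log2 fold change was -5.99 (SE 3.07, adjusted p = 0.83, edgeR), and 3.44 once WT replicate 3 was left out. Snord14a had 0, 120 and 1 reads in the WT libraries against 876, 0 and 98 in the Foxm1 HET libraries, a log2 fold change of 2.23 (SE 3.10, adjusted p = 0.998, edgeR). Snord22, an RNA of Snhg1, had 0, 5 and 112 reads in the WT libraries against 299, 1 and 162 in the Foxm1 HET libraries. Foxm1 HET replicate 1 was the highest library for both, and the genotypes overlapped. Snord95, from Gnb2l1 (the ribosomal scaffold protein Rack1), had 470, 0 and 371 reads in the WT libraries against 0, 1 and 0 in the Foxm1 HET libraries, but did not pass the filter for the test. Snord96a, from the same host gene, had 1, 274 and 0 reads in the WT libraries against 0, 0 and 167 in the Foxm1 HET libraries, so that the RNAs of this host were at 10 reads or more in different libraries.

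Among box H/ACA snoRNAs, 3 of 21 were tested. Snora31 had 3, 1323 and 1 reads in the WT libraries against 358, 2 and 1717 in the Foxm1 HET libraries. Each genotype thus held both near-absent and high libraries, and the log2 fold change was -0.21 (SE 2.75, adjusted p = 0.998, edgeR). Snora23, from Ipo7, had 204, 1 and 133 reads in the WT libraries against 272, 0 and 0 in the Foxm1 HET libraries. Snora33 had 467, 0 and 0 reads in the WT libraries against 158, 0 and 53 in the Foxm1 HET libraries. Both overlapped between genotypes, with log2 fold changes of -1.29 and -1.95. Of the 5 small Cajal body RNAs, only Scarna9 was tested, with 205, 0 and 3 reads in the WT libraries against 45, 7 and 1 in the Foxm1 HET libraries and a log2 fold change of -2.05 (SE 2.94, adjusted p = 0.998, edgeR). Scarna8 had 0, 1386 and 2 reads in the WT libraries against 2, 0 and 0 in the Foxm1 HET libraries, so 1 WT library held 99.7% of its CPM. Scarna3b had 78, 0 and 1 reads in the WT libraries against 10, 0 and 561 in the Foxm1 HET libraries. Scarna6 was at 72 reads in Foxm1 HET replicate 1 alone and Scarna13 at 15 reads in Foxm1 HET replicate 2 alone.

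Of the 61 snoRNAs and small Cajal body RNAs, 58 lay inside another gene on the same strand, all of them in its introns, and together they had 47 hosts. Ribosomal protein genes made up 15 of the hosts and held 16 of these RNAs, and Gas5 and the Snhg genes held 8. Each RNA was compared with its host in each of the 6 libraries, which gave 348 pairs that share libraries and, for 20 of the RNAs, a host. The RNA had 10 reads or more in 86 pairs, and in 84 of these (97.7%) the host did too. The RNA had 0 reads in 203 pairs, and in 154 of these (75.9%) the host was at 10 reads or more. A counted host was therefore the rule where the snoRNA was counted, and also common where it was not. Since all 58 RNAs lie in introns, reads of unspliced host RNA and reads of the snoRNA itself cannot be told apart in these counts. This holds also for the ratios to host reads given below. The snoRNA exceeded its host in 10 of the 86 pairs, as for Snord72 in WT replicate 3 (3238 reads against 1850 for Rpl37) and Snora31 in WT replicate 2 (1323 reads against 197 for Tpt1).

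**Figure D4:**
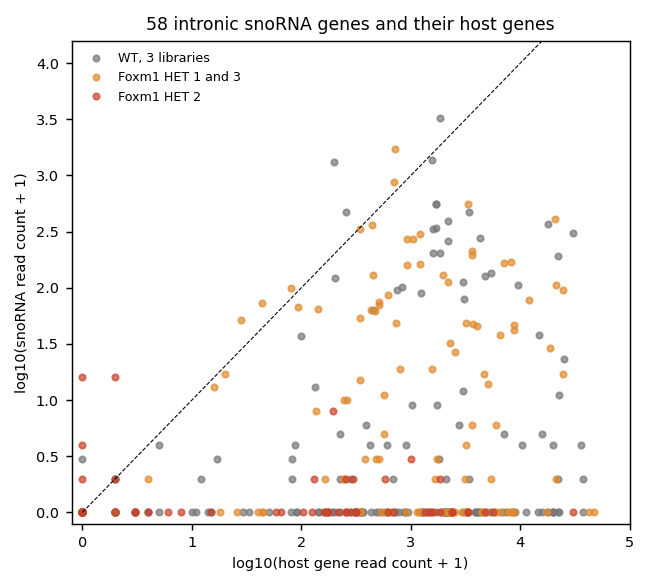
Reads of 58 intronic snoRNA and small Cajal body RNA genes (y axis) against reads of the host gene in the same library (x axis), both as log10(read count + 1), with 1 point per RNA and library and equality as the dashed line. Points of Foxm1 HET replicate 2 (red) lie along the bottom also where the host had many reads.

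Per 1000 host reads there were 26.9, 30.1 and 16.0 snoRNA reads in the WT libraries against 22.1, 0.81 and 21.4 in the Foxm1 HET libraries. Foxm1 HET replicates 1 and 3 lay inside the WT range. Without Snord72, the ratios were 26.9, 30.1 and 3.53 in the WT libraries against 21.8, 0.81 and 21.1 in the Foxm1 HET libraries. In Foxm1 HET replicate 2 the hosts were at 10 reads or more for 37 of the 58 RNAs, and their summed level of 4149 CPM was the lowest of the 6 libraries, against 5187 CPM in the next.

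Of the 9 hosts with more than 1 snoRNA, 23 combinations of host and library had at least 1 of the RNAs at 10 reads or more, and in 5 of them all the RNAs of the host were. Only for Snhg12 and Eif4a2 did all RNAs peak in the same library. Snord69 of Gnl3, Snord70 of Nop58 and Snord53 of Wdr43 had 2, 3 and 3 reads in all. For those hosts the peak and the count with all RNAs at 10 reads say little. Snhg12 itself had 2, 1687 and 1 reads in the WT libraries against 514, 1 and 243 in the Foxm1 HET libraries. Its RNAs Snora44 (560 reads), Snora61 (554 reads) and Snord99 (343 reads) all peaked in WT replicate 2, as the host did. In Foxm1 HET replicate 1, the second highest library of the host, they had 2, 69 and 74 reads.

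The U14 copies of Hspa8, whose sequences are given above, did not share a library profile. Hspa8 had 2196, 348 and 2051 reads in the WT libraries against 3652, 252 and 2275 in the Foxm1 HET libraries. Snord14c had 259, 0 and 0 reads in the WT libraries against 213, 1 and 31 in the Foxm1 HET libraries. Snord14d had 389, 0 and 0 reads in the WT libraries against 5, 0 and 0 in the Foxm1 HET libraries. Snord14e had 194 reads in Foxm1 HET replicate 1 and 0 in each other library. All 3 copies were thus at 0 reads in WT replicates 2 and 3, where the host was counted. In Rps12, which encodes a protein of the small ribosomal subunit, Snora33 peaked in WT replicate 1, while Snord100 had 0, 0 and 1 reads in the WT libraries against 271, 3 and 334 in the Foxm1 HET libraries. Snord100 did not overlap between genotypes (exact permutation test on log2 CPM, two-sided, p = 0.1, which is the lowest value open to 3 against 3), but Foxm1 HET replicate 2 had 3 reads and the gene failed the filter for the model. Rps12 had 252, 0 and 1 reads in the WT libraries against 924, 0 and 343 in the Foxm1 HET libraries, so the host was also near 0 in WT replicates 2 and 3.

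The spliced host transcripts were longer and were counted more evenly, with 7 of 11 tested. Gas5, which hosts several snoRNAs and is known to gather in growth-arrested cells, had 6784, 14687 and 19902 reads in the WT libraries against 20660, 2394 and 11990 in the Foxm1 HET libraries. The WT libraries averaged 9.30 ± 1.01 on the log2 CPM scale (SD, n = 3) and the Foxm1 HET libraries 8.59 ± 0.46 (SD, n = 3), and the fitted log2 fold change was -0.88 (SE 1.45, adjusted p = 0.998, edgeR). The genotypes overlapped, since WT replicate 1 lay below Foxm1 HET replicates 1 and 2 on that scale. Snhg1 had 515, 2743 and 2967 reads in the WT libraries against 1209, 129 and 1220 in the Foxm1 HET libraries, with a log2 fold change of -2.03 (SE 2.18, adjusted p = 0.998, edgeR). WT replicates 2 and 3 were above every Foxm1 HET library, and WT replicate 1 was not. Both genes kept a negative value in each of 17 alternative settings, from -1.17 to -0.04 for Gas5 and from -2.42 to -0.15 for Snhg1, and were called in none. The values nearest 0 came from log2(value + 1) of the normalized table, which is already on a log2 scale, so they are not fold changes. On that table as deposited the values were -0.21 for Gas5 and -0.91 for Snhg1.

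Snhg5 had 735, 38 and 104 reads in the WT libraries against 2759, 23 and 243 in the Foxm1 HET libraries. Snhg4 had 8, 363 and 19 reads in the WT libraries against 587, 3 and 1745 in the Foxm1 HET libraries. Their log2 fold changes were 0.98 and 1.71, with standard errors of 2.73 and 2.93. Snhg6 had the highest fitted value of the 26 genes, 4.60 (SE 3.42, adjusted p = 0.971, edgeR), from 1, 36 and 1 reads in the WT libraries against 1575, 0 and 16 in the Foxm1 HET libraries. It was thus high in Foxm1 HET replicate 1 alone, and it was chosen for mention after its values were seen. Snhg7 had 1597, 0 and 0 reads in the WT libraries against 1, 5 and 618 in the Foxm1 HET libraries and was not tested.

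Host transcripts of snoRNAs often start with a C followed by pyrimidines, the 5′ terminal oligopyrimidine motif of genes whose translation follows growth signals. The 10 RefSeq starts (GRCm38.p6) of 9 of these host genes were examined for a C followed by at least 4 more bases C or T. Of the 10 starts, 3 held it, against 2.50% of 32851 starts of all genes, and the first 20 bases are shown with the leading pyrimidines in capitals.
Gas5 (chr1:161035166-161035185, plus strand): CTTTCggagctgtgcggcat
Snhg7 (chr2:26640225-26640244, minus strand): CTCTCggcagccatggcggc
Snhg8 (chr3:123508317-123508336, minus strand): CTCTTTggctgcgatccgcc
Snhg1 (chr19:8723487-8723506, plus strand): CTCatttttccttgttcggg
Snhg1 is shown as a start that fell short of the motif. Snhg8 had 428, 131 and 24 reads in the WT libraries against 63, 1 and 70 in the Foxm1 HET libraries, with a log2 fold change of -2.92 (SE 3.19, adjusted p = 0.998, edgeR).

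The structural RNAs are made by RNA polymerase III, and all 3 were tested. Rn7sk had 287, 70 and 288 reads in the WT libraries against 336, 1141 and 109 in the Foxm1 HET libraries. Rmrp had 75, 236 and 1 reads in the WT libraries against 118, 214 and 6 in the Foxm1 HET libraries. Rpph1 had 158, 578 and 52 reads in the WT libraries against 123, 200 and 70 in the Foxm1 HET libraries. On the TMM-scaled log2 CPM scale, Foxm1 HET replicate 2 was the highest of the 6 libraries for each of them, at 7.46 for Rn7sk, 5.05 for Rmrp and 4.95 for Rpph1, while the other Foxm1 HET libraries lay within or below the WT range. The log2 fold changes were 2.46 (SE 2.56) for Rn7sk, 1.38 (SE 2.99) for Rmrp and -0.01 (SE 2.86) for Rpph1, with adjusted p of 0.998, 0.998 and 0.999 (edgeR). Without Foxm1 HET replicate 2, Rn7sk was at -0.92 and Rmrp at -1.46, so that library set the sign of both. Rn7sk shares 68.1% of its 50-base stretches with other annotated genes, so its reads may be split between copies. TMM gave that library a factor of 0.453, which raises its scaled values, and by CPM without that factor it was still the highest for Rn7sk and Rmrp, while WT replicate 2 was the highest for Rpph1. Maf1, a repressor of RNA polymerase III, had 6, 7 and 18 reads in the WT libraries against 574, 22115 and 840 in the Foxm1 HET libraries. Its genotypes did not overlap, and it was called, with a log2 fold change of 10.98 (SE 2.20, adjusted p = 0.0015, edgeR). Calls made up 0.329% of all genes tested. The highest count of Maf1 was in Foxm1 HET replicate 2, and without that library 0 genes were called over the whole table. The part of Maf1 in the values of the structural RNAs was not tested.

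**Figure D5:**
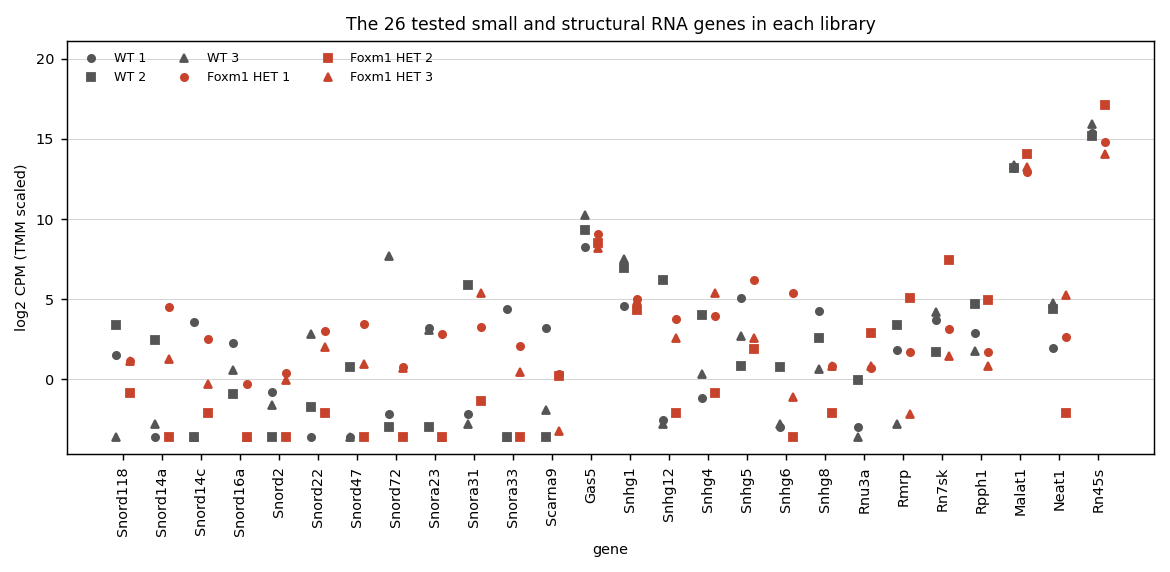
TMM-scaled log2 CPM (y axis) of the 26 tested genes (x axis) in each library, WT in grey and Foxm1 HET in red, with replicates 1, 2 and 3 as circles, squares and triangles. Replicate 2 of Foxm1 HET (red squares) is the highest point for Rn7sk, Rmrp, Rpph1, Malat1, Rn45s and Rnu3a and at or near the bottom for most snoRNAs. By CPM without the TMM factor it was the lowest library for Malat1, and WT replicate 2 was the highest for Rpph1.

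Of the 7 genes with the prefix Rnu, Rnu3a alone was tested. It had 1, 20 and 0 reads in the WT libraries against 59, 48 and 70 in the Foxm1 HET libraries, so every Foxm1 HET library was above every WT library. The WT libraries averaged -2.21 ± 1.90 log2 CPM (SD, n = 3) and the Foxm1 HET libraries 1.47 ± 1.24 (SD, n = 3). The fitted change was 3.48 (SE 3.11, adjusted p = 0.986, edgeR), and it stayed between 1.52 and 6.93 in 16 alternative settings without being called. The value of 1.52 came from log2(value + 1) of the normalized table, already on a log2 scale, and is not a fold change. On that table as deposited it was 3.93. The exact permutation test on log2 CPM, two-sided, gave its smallest possible value (p = 0.1). Such a gap was seen in 1 of the 26 tested genes (3.85%), against 8.68% of all genes tested, and with Snord100 in 2 of the 85 (2.35%), against 7.36% of the normalized table. Another U3 gene, Rnu3b2, had 1, 0 and 0 reads in the WT libraries against 15, 0 and 24 in the Foxm1 HET libraries, and 100% of its 50-base stretches occur in other annotated genes, against 0.606% for Rnu3a. The RNAs of the minor spliceosome were near 0, with Rnu11 at 11 reads in Foxm1 HET replicate 1 and 0 elsewhere and Rnu12 at 24 and 23 reads in Foxm1 HET replicates 1 and 3 and 0 elsewhere. Rnu73b, a box C/D snoRNA inside Rps3a1, had 69 reads in Foxm1 HET replicate 1 and 0 elsewhere.

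Malat1, a nuclear RNA of splicing speckles, and Rn45s were the most abundant of the 85 genes in TPM, a level per length, at means of 3277 and 16359 TPM. Snord72 followed at 870.0 TPM, a mean carried by 1 library, and then Snora31 at 480.0 TPM and Gas5 at 473 TPM. The counted lengths behind these values were 60, 112 and 2554 bases. They were not corrected for read length, so the place of such short RNAs in this order is uncertain. Malat1 had 202762, 212873 and 169687 reads in the WT libraries against 292857, 111590 and 400638 in the Foxm1 HET libraries. The WT libraries averaged 13.25 ± 0.11 log2 CPM (SD, n = 3) and the Foxm1 HET libraries 13.40 ± 0.60 (SD, n = 3), and the log2 fold change was 0.24 (SE 0.98, adjusted p = 0.998, edgeR). The spread between Foxm1 HET libraries exceeded the difference between genotypes. Foxm1 HET replicate 2 was the highest library for Malat1 on this TMM-scaled measure, at 14.07. By CPM without the TMM factor it was the lowest, at 7657 CPM against 7883 to 15530 CPM in the other libraries. Neat1, the scaffold of paraspeckles, had 84, 470 and 438 reads in the WT libraries against 233, 1 and 1595 in the Foxm1 HET libraries, with a log2 fold change of -0.23 (SE 2.78, adjusted p = 0.998, edgeR).

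Rn45s took 4.72%, 3.69% and 4.68% of the counted reads in the WT libraries against 4.27%, 6.24% and 2.81% in the Foxm1 HET libraries, after the depletion of ribosomal RNA that the labels describe. WT lay within the range of Foxm1 HET. The log2 fold change was 0.38 (SE 0.77, adjusted p = 0.998, edgeR), and -1.00 without Foxm1 HET replicate 2 (adjusted p = 0.78, edgeR), and the cause of this change was not tested. In the deposited normalized table Rn45s has the same value, 13.96 on the log2 scale, in all 6 libraries, so that table cannot show a difference for it.

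The proteins that work with these RNAs were taken as 12 lists of 110 genes, of which 84 were tested, 35 (41.7%) with a fold change above 0 and 49 below, against 45.4% above 0 over all genes, and 0 were called. At an unadjusted p under 0.05 there were 6 genes (7.14%), 3 with a positive and 3 with a negative fold change, against 6.03% of all genes. The genotypes did not overlap for 10 of the 84 (11.9%), against 8.68% of all genes. Of the core proteins, 4 of 4 in box C/D particles (Nop56 had 16, 936 and 1991 reads in the WT libraries against 434, 298 and 535 in the Foxm1 HET libraries) and 4 of 4 in box H/ACA particles were tested, with median log2 fold changes of 0.76 and 1.30. Nhp2 of the box H/ACA core had 19, 3 and 4 reads in the WT libraries against 4633, 4 and 88 in the Foxm1 HET libraries, a fitted log2 fold change of 6.63 (SE 3.45, adjusted p = 0.845, edgeR), while Gar1 of the same core had 0, 1764 and 2017 in the WT libraries against 107, 1 and 121 in the Foxm1 HET libraries. The core proteins of one particle thus peaked in different libraries. The median was 0.95 for 9 assembly factors tested of 15, -1.37 for 3 of 11 RNase P and RNase MRP proteins, 0.25 for 6 of 7 proteins of the 7SK particle and P-TEFb, -0.35 for 1 of 2 Y RNA and La proteins, and -1.61 for 5 of 8 signal recognition particle proteins. It was 0.65 for 9 of 12 spliceosomal core proteins, -0.68 for 6 of 6 paraspeckle proteins, -0.59 for 13 of 16 RNA polymerase I and nucleolar proteins, -0.49 for 14 of 15 trimming and exosome factors, and -0.14 for 10 of 10 factors of nonsense-mediated decay.

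Parn, Hexim1, Taf1b, Ccnt2, Exosc2 and Smg9 made up these 6 genes, and of them Parn and Ccnt2 did not overlap between genotypes. Parn, a deadenylase that trims the 3′ ends of box H/ACA snoRNAs, had 7, 7 and 35 reads in the WT libraries against 984, 2686 and 547 in the Foxm1 HET libraries, a fitted log2 fold change of 7.33 (SE 2.71, adjusted p = 0.39, edgeR). Ccnt2, a cyclin of P-TEFb, had 267, 1056 and 6803 reads in the WT libraries against 176, 1 and 133 in the Foxm1 HET libraries, a fitted log2 fold change of -5.92 (SE 2.49, adjusted p = 0.599, edgeR). Hexim1, which inhibits P-TEFb when bound to Rn7sk, had 765, 4 and 1113 reads in the WT libraries against 1198, 8977 and 329 in the Foxm1 HET libraries, a fitted log2 fold change of 3.77 (SE 1.80, adjusted p = 0.768, edgeR). Its highest count was in Foxm1 HET replicate 2, where Rn7sk was also highest, and a link between Hexim1 and Rn7sk was not tested. Taf1b, a subunit of the RNA polymerase I initiation factor, had 458, 47 and 13 reads in the WT libraries against 325, 14097 and 2825 in the Foxm1 HET libraries, a fitted log2 fold change of 6.58 (SE 1.94, adjusted p = 0.11, edgeR), also with its highest count in Foxm1 HET replicate 2. Exosc2, a subunit of the RNA exosome, had 2, 9739 and 2 reads in the WT libraries against 354, 0 and 24 in the Foxm1 HET libraries, a fitted log2 fold change of -5.44 (SE 2.50, adjusted p = 0.745, edgeR). Smg9, a regulator of the kinase Smg1 in nonsense-mediated decay, had 248, 4744 and 1 reads in the WT libraries against 4, 2 and 88 in the Foxm1 HET libraries, a fitted log2 fold change of -6.43 (SE 3.07, adjusted p = 0.768, edgeR). Both were highest in WT replicate 2 alone, and their genotypes overlapped.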

How the data were processed

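The authors aligned 50-base reads to GRCm38 (mm10) with STAR 2.7.2b and deposited raw read counts per gene with gene lengths, 1 column per library. The counting program, strand use and treatment of multi-mapping reads are not given in the sources used here, so near-identical copies and genes overlapping on either strand are uncertain. A second table deposited by the authors holds log2 values after normalization. It was used to choose the genes and as an alternative. The genes and lists were chosen with earlier results of these data known.

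The count model was edgeR 4.0.16 (R 4.3.3), with filterByExpr, TMM scaling and the quasi-likelihood test, adjusted by Benjamini-Hochberg over 8195 genes (biological coefficient of variation 1.66). Standard errors (SE) are fold changes on the log2 scale over the root of F. Log2 CPM used a prior count of 2. TPM was computed from counts and counted lengths, without a correction for read length. The fitting was tested on simulated data. Named genes are, per class, up to 5 with the highest mean CPM, up to 4 tested genes of at least 1 CPM whose genotypes did not overlap, hosts of named snoRNAs, and up to 3 genes per protein list with the smallest p. Alternatives were scaling by RLE, upper quartile or library size, totals without ribosomal RNA, other filters, DESeq2 1.42.0, limma-voom (limma 3.58.1), a replicate block, each library left out, and limma on the normalized table. Thinning, sums without Snord72 or the highest gene, and the counts at an unadjusted p without each library were added after seeing the data. Library totals of 14573002 to 25798509 set the counting precision, and PCR duplicates cannot be told apart. Sequences came from GENCODE M21 transcripts and RefSeq starts, and 82 of the 85 genes were matched in GENCODE M21.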

Additional observations from a re-analysis of the deposited data

How the results depend on the processing

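The 85 genes gave 0 calls in each alternative except limma-voom, which called 1, Rn45s, at -1.00 on the log2 scale. Its voom weights there ran from 23.6 to 1284, against a median over genes of 0.131 for the largest weight of a gene, and its unweighted difference was -0.18. The count of genes called over the whole table was 27, and it was 10 with RLE, 43 with upper-quartile scaling, 7 with library size only, 13 with totals without ribosomal RNA, 194 with DESeq2, 4 with limma-voom, and 0 with at least 10 counts in every library and with the normalized table under limma as deposited or as log2(value + 1). It was 0 to 29 when 1 library was left out, with 0 without each of Foxm1 HET replicate 2, WT replicate 1 and WT replicate 2, 1 without WT replicate 3, and 26 and 29 without Foxm1 HET replicates 1 and 3. With the replicate number as a block it was 0 over all genes (108 at an unadjusted p under 0.05). The methods name mouse pairs, but nothing ties the replicate numbers to them, and same-numbered libraries correlated at 0.016, -0.025 and -0.069. The median of all genes moved from -0.26 to between -0.53 and 0.26 over the settings, and that of the small and structural RNA genes that each setting tested (7 to 85 genes, 26 with all libraries and the main filter) from -0.11 to between -1.23 and 0.57. Each such shift was less than 1.78, the pooled SD within genotypes of the median log2 CPM of the 26 genes between libraries. That SD was not taken for all genes. Both medians changed sign over the settings.

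Of the 18 named genes tested, 5 (Gas5, Rnu3a, Snhg1, Snhg4, Snora23) kept their sign in all alternatives, and 45 of 292 values reversed. Under limma-voom, Malat1 was at -0.10, Scarna9 at 0.17, Snora31 at 2.95 and Snora33 at 1.45. Under the block, Rn45s was at -0.24, Snora31 at 5.52 and Snora33 at 1.24. With upper-quartile scaling, library size only and totals without ribosomal RNA, Neat1 was at 0.26, 0.67 and 0.59 and Snora31 at 0.27, 0.49 and 0.50. Rpph1 was at 0.90 with RLE, 0.30 with upper-quartile scaling, 0.00056 without a filter and 0.90 with DESeq2. On the normalized table as deposited and as log2(value + 1), Rmrp was at -0.14 and -0.21, Scarna9 at 0.022 and 0.24, Snora31 at 3.08 and 0.83 and Snora33 at 0.89 and 0.68. The deposited values are already on a log2 scale, so those from log2(value + 1) are not fold changes. Leaving out 1 library gave -0.12 to 0.48 for Malat1, -2.33 to 0.40 for Neat1, -1.46 to 2.78 for Rmrp, -1.00 to 0.79 for Rn45s, -0.92 to 2.98 for Rn7sk, -2.24 to 1.18 for Rpph1, -2.66 to 3.02 for Scarna9, -1.48 to 2.86 for Snhg5, -1.90 to 7.30 for Snora31, -3.28 to 8.55 for Snora33, -0.46 to 7.90 for Snord14a, -0.080 to 5.07 for Snord22 and -6.60 to 3.44 for Snord72. The cause of these changes was not tested. For the 10 of 61 snoRNAs that reached 10 reads in no library, a difference was not detectable at this depth.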

Other observations

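Without Foxm1 HET replicate 2, more of the 85 genes passed the filter on low counts, 43 against 26, and 5 of them (11.6%) were at an unadjusted p under 0.05 in edgeR, against 6.36% of all genes, with none called. Leaving out each other library gave 0 to 2 such genes (0% to 5.26%), below the share of all genes (4.81% to 6.52%) each time. These were Snord72 without WT replicate 1 or 2 and Snord95 without WT replicate 2. The 5 genes without Foxm1 HET replicate 2 were Rn45s (-1.00 on the log2 scale) and Snord95 (-11.7), which were lower, and Rnu12 (7.09), Snora78 (7.87) and Snord100 (8.37), which were higher, each with an adjusted p of 0.78. Rnu12 and Snora78 are at 0 in all WT libraries, Snord95 is at 0 in the remaining Foxm1 HET libraries and Snord100 has 1 read in all WT libraries together, so the fitted values of these 4 genes depend on the prior count and are no bounds. With a library left out, the filter asked for reads in fewer libraries. These 4 genes passed it only through the genotype in which they were high. Their p-values and the share of 11.6% are thus no support for a difference. Snora78, an RNA of Snhg9, had 0, 0 and 0 reads in the WT libraries against 66, 0 and 12 in the Foxm1 HET libraries, and Snhg9 had 0, 3 and 0 in the WT libraries against 93, 0 and 15 in the Foxm1 HET libraries.

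A further 5 genes of the count table carry a symbol of this kind and a read but are not in the normalized table. They are Snhg15, Rnu1a1, Rnu3b1, Rnu3b3 and Rnu3b4, with 1 or 2 reads each in a single library.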
